A study of Mus musculus with 6 samples.

Results

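Notch signalling passes between touching cells. A ligand on one cell (here Dll1 and Jag1) binds a Notch receptor on its neighbour, gamma-secretase releases the receptor's intracellular domain, and that domain joins the DNA-binding protein RBPJ to switch on target genes. The best known targets are the Hes and Hey genes, which encode basic helix-loop-helix repressors that hold back proneural genes such as Neurog2. Acetylation and crotonylation of lysine 9 of histone H3 (H3K9ac and H3K9cr) both lie at active promoters and enhancers.

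The 10 genes described here are Hes1, Hes5, Hes7, Hey1 and Hey2, the ligand genes Dll1 and Jag1, and the receptor genes Notch1, Notch2 and Notch3, out of 21887 protein-coding genes of the mouse. They were chosen as a named list. Their peaks were all those overlapping the gene record, extended by 10 kb on either side, by at least 1 bp. The cells were P19, embryonal carcinoma cells of the mouse that can be driven into neurons but were kept here, undifferentiated, in MEM alpha with fetal bovine serum. Chromatin was precipitated without crosslinking, with 1 antibody to H3K9cr and 1 to H3K9ac, each in 2 biological replicates, and the 2 input samples were not analysed here. No treatment or genotype separates the groups, so the comparison made is that of the 2 marks in the same line. Because each mark had 1 antibody, the mark and the antibody cannot be told apart, and from bulk chromatin a mark in fewer cells and a lower level per cell cannot be told apart.

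The lists held 28360 and 28345 peaks for H3K9cr and 26096 and 27474 for H3K9ac, and read depth is not given in the sources used here. A missing peak is a signal below the authors' threshold. The coverage signal at a peak's summit (pileup) carries a scale of its own in each library, so every strength below is a percentile of summit pileup within its own list, from 0 for the weakest peak to 100 for the strongest. The label of the line was checked against markers. Among 8 embryonal carcinoma markers, 8 had a peak in every library, and the strongest peaks near Pou5f1, Sox2 and Nanog had mean percentiles of 79.6, 84.1 and 65.6. The median over the 8 was 81.9. Of all protein-coding genes, 71.3% had a peak in every library, and their median was 79.3, so the markers of the line were near the usual level. No library had a peak near Alb, a liver gene, or near Hbb-bt, a blood gene. Markers of other cell types were not all free of peaks, since 4 of 4 neural progenitor, 3 of 3 mesoderm, 3 of 3 endoderm and 3 of 4 fibroblast markers had one in every library. Their median percentiles were 47.1, 44.1, 35.0 and 53.2 in that order, though the mesoderm marker Tbx6 reached 93.8 and the endoderm marker Gata4 68.4.

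The DNA just before the start site was read for the members with an entry in the RefSeq promoter table (build GRCm38.p6), which gave 9 start sites for 8 genes, with 2 for Dll1. Hes1 and Hey1 had no entry. Each stretch has 250 bases that end at the base before the annotated start. The sequences below are those of the Hes and Hey genes, where RBPJ is known to act. Capitals mark the core of the RBPJ motif, TGGGAA, on either strand.

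Hes5 upstream, GRCm38.p6 chr4:154960673-154960922, plus strand: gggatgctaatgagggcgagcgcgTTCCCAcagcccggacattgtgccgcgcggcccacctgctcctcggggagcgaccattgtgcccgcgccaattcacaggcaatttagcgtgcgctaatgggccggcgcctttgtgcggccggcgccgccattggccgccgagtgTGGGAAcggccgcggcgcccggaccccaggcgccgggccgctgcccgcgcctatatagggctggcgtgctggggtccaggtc

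Hes7 upstream, GRCm38.p6 chr11:69120203-69120452, plus strand: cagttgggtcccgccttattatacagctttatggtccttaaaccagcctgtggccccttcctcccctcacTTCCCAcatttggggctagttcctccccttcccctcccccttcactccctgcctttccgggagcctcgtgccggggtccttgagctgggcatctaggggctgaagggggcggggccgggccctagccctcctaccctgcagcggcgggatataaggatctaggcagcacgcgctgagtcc

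Hey2 upstream, GRCm38.p6 chr10:30842784-30843033, minus strand: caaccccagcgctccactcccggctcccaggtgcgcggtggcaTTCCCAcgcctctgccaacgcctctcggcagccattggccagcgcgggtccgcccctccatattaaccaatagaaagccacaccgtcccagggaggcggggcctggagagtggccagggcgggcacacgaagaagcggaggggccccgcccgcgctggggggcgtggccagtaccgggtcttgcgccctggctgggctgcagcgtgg

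The core TGGGAA was found in 3 of the 9 member stretches, those of Hes5, Hes7 and Hey2, and in 20.9% of 21263 stretches of the same length before all annotated starts. A longer form, TGTGGGAA, was searched after the promoters had been read, and it overlaps the core. It was found in 2 of 9 member stretches and in 1.33% of all. Hes5 held it on the minus strand at positions -226 to -219 and on the plus strand at -84 to -77, counted back from the start, and Hes7 held 1 copy on the minus strand at -180 to -173. Hey2 held the core alone, at -207 to -202 on the minus strand. The core was absent from the stretches of Dll1, Jag1 and the 3 receptor genes. The GC box GGGCGG was found before all 3 receptor genes, and is in capitals here for Notch1 and Notch2, on either strand.

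Notch1 upstream, GRCm38.p6 chr2:26503823-26504072, minus strand: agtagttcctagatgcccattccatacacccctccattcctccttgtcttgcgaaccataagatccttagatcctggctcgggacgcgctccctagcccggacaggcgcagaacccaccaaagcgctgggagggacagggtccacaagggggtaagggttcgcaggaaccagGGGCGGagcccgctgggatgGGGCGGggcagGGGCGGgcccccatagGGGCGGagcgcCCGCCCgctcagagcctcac

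Notch2 upstream, GRCm38.p6 chr3:98013288-98013537, plus strand: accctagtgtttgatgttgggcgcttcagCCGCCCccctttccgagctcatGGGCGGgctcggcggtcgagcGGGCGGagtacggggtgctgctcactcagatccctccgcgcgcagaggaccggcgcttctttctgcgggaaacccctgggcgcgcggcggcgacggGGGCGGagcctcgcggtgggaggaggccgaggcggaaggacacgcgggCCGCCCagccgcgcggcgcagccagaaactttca

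The GC box stood 5 times before Notch1, 5 times before Notch2 and 4 times before Notch3, as well as 3 times before Hey2 and 1 time before Hes7. It was present in 5 of 9 member stretches against 42.6% of all stretches. The E box CACGTG was in 0 of 9 against 6.63%, the class C site CACGCG, to which Hes proteins bind, in 4 of 9 against 9.99%, the N box CACNAG in 4 of 9 against 35.9%, and TATAAA in 0 of 9 against 11.6%. All were searched on both strands, and a match or its absence is a property of the letters only. The GC content of the member stretches ran from 56% before the upstream start of Dll1 to 72% before Notch2, and the median over all stretches was 55.6%. The peaks lay over this DNA in nearly every case. The annotated start was inside a peak in all 4 libraries for 8 of the 9 starts, and in 3 libraries for Hey2.

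All 10 genes had a peak in every library, as did 71.3% of protein-coding genes (15603 of 21887). Their windows held 25 separate sites, counting peaks that overlapped between libraries as 1 site. Of these, 24 had a peak in all 4 libraries, against 73.8% of all 31127 regions formed in the same way. The exception was a weak peak of 273 bp inside Notch1 that only H3K9cr replicate 1 listed. The 24 include a site across the edge of the Hes7 window, which was counted whole. There the peaks of H3K9cr replicate 2 and H3K9ac replicate 1 lay just outside the window. There were 10 sites at the genes' own starts, 6 in gene bodies and 9 in the flanks. For Hes1 and Hey1, which had no entry in the promoter table, a site over either end of the gene record was counted as a start site. Mean percentiles of the sites found in every library ran from 48.1 to 85.8 at the starts, from 11.4 to 46.2 in the bodies and from 25.1 to 91.0 in the flanks. The median length covered by peaks, sites in the flanks included, was 5216 bp per member window and 2883 bp over the 15603 genes with a peak in every library. The median percentile of the strongest peak was 73.9 for the members and 79.3 for those genes. Long coverage was not particular to the members. The median covered length was 4064 bp for 59 other pathway genes, and among the marker lists it ran from 2828 bp (fibroblast) to 7360 bp (neural progenitor).

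**Figure D1:**
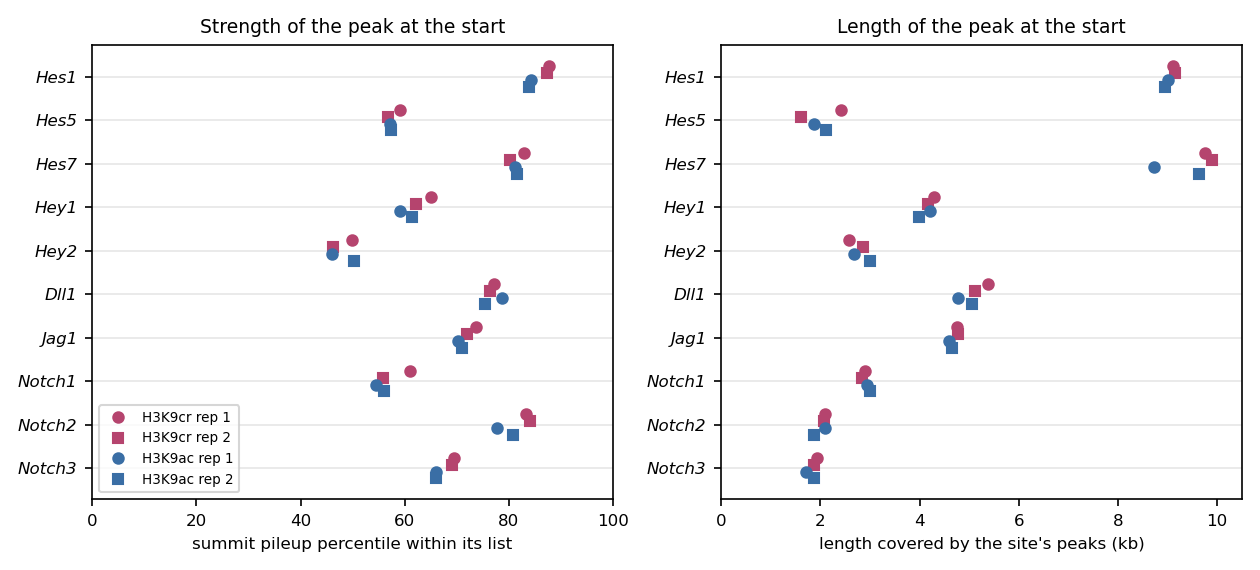
Strength (left, percentile of summit pileup within its list) and covered length (right, kb) of the site at the start of each of the 10 genes, with 1 point per library. For Hes1 and Hey1, which have no promoter entry, the site drawn is the one over an end of the gene record. Hes1 and Hes7 stand apart by length, near 9 kb and above, while Hey2 has the lowest strength in all 4 libraries.

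Hes1, the most widely used Notch target and an oscillating repressor in progenitor cells, lay whole under a single peak. The gene record spans chr16:30065357-30067796, and the merged peak spans chr16:30062264-30071420 in GRCm38, so it covers the gene body and extends beyond both ends. Its widths were 9114 and 9157 bp with H3K9cr and 9017 and 8947 bp with H3K9ac. These ranked 17th and 18th of the H3K9cr peaks and 10th and 15th of the H3K9ac peaks in width. Strength was lower in rank than width. The percentiles of summit pileup were 87.6 and 87.3 with H3K9cr and 84.3 and 83.9 with H3K9ac. The marks did not overlap, with H3K9cr higher by 3.35 percentile points. The noncoding gene Gm32998 lies under the same peak, so its share of the signal cannot be separated. The authors' fold enrichment at the summit was 95.3 and 91.2 for H3K9cr and 63.9 and 92.8 for H3K9ac.

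Outside the pathway list, the genes most like Hes1 in strength and covered length together were Trmt1, a tRNA methyltransferase gene, Spred3 and Ggn. Likeness was the Euclidean distance over 8 values per gene, the percentiles of strength and of covered length among all genes in the 4 libraries. The distances were 3.20, 3.47 and 4.01. Spred3 and Ggn neighbour each other and share their strongest peak.

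Hes7, a repressor of the segmentation clock that paces the formation of somites, had the longest site of the 10. A single peak of 9752 and 9902 bp covered it with H3K9cr and one of 9633 bp with H3K9ac replicate 2. H3K9ac replicate 1 listed it as 3 peaks of up to 6363 bp, with 8716 bp in all. The widths ranked 11th and 14th with H3K9cr, 68th in H3K9ac replicate 1 and 11th in H3K9ac replicate 2. The gaps in the split library were 288 and 522 bp long. The first gap holds the tRNA gene n-TRtct4 and the second holds n-TLtag3 and n-TQctg6, and 5 tRNA genes lie under the whole site at chr11:69116953-69126854. An end of Aloxe3, a lipoxygenase gene of the epidermis, and the noncoding gene 9130213A22Rik are under it too. The summit did not sit at the annotated start of Hes7. Counted from that start, it lay between -2440 and -2298 bp in the 4 libraries. Strength was close in both marks, with percentiles of 83.0 and 80.3 for H3K9cr and 81.1 and 81.5 for H3K9ac. The H3K9ac values lay between the H3K9cr ones.

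The strongest peak in the Hes7 window lies in the flank and not at the Hes7 start. An end of Per1, a circadian clock gene, is within 1 kb of it, and the tRNA genes n-TScga3 and n-TTagt5 lie under it. To which of these the signal belongs was not tested. Its percentiles were 91.3, 93.0, 87.5 and 92.1 in the order H3K9cr replicate 1 and 2 and H3K9ac replicate 1 and 2. Percentiles in the rest of the text keep that order where 4 are given. The Hes7 window also touches a weak site 13344 to 14579 bp downstream of its start. There the percentiles were 34.4, 35.7, 20.5 and 22.9, and both H3K9cr values were above both H3K9ac values. The peaks of H3K9cr replicate 2 and H3K9ac replicate 1 begin beyond the window, and the site was counted whole.

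Hes5, a target of Notch in neural progenitors, had a start site of ordinary size. Its percentiles were 59.1, 56.8, 57.3 and 57.4, and its widths were 2418, 1618, 1863 and 2110 bp. Neither measure separated the marks. All 4 summits fell 163 to 191 bp downstream of the annotated start, on the far side of it from the RBPJ motifs printed above. Upstream stood 2 smaller sites. The nearer one had percentiles of 40.4, 36.2, 30.8 and 43.4, which overlapped between marks. The farther one, near the upstream edge of the window, had percentiles of 32.9, 29.6, 14.9 and 22.9 and widths of 801, 673, 339 and 579 bp. Here both H3K9cr values exceeded both H3K9ac values in strength and in width. The strongest peak of the window lay within 1 kb of an end of Pank4 and over the noncoding gene Gm42363. Its percentiles were 74.4, 77.2, 74.5 and 78.4, so the strength of the Hes5 window as a whole is that of this flanking site.

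Hey1, a repressor that Notch induces in vessels and heart, had 1 site in its window. Its percentiles were 65.1, 62.2, 59.0 and 61.5, with H3K9cr above H3K9ac in both replicates. Its covered lengths were 4295, 4177, 4201 and 3991 bp. H3K9ac replicate 2 listed it as 2 peaks with a gap of 259 bp. The coding gene record LOC115489673 adjoins Hey1 on this side, and the site covers an end of both.

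Hey2, the close relative of Hey1, had the weakest start site of the 10. Its percentiles were 49.9, 46.2, 46.1 and 50.2, and the marks overlapped. The covered lengths were 2570, 2868, 2684 and 2995 bp. In H3K9cr replicate 1 the site was split by a gap of 259 bp that holds the annotated start itself, while the other 3 libraries listed 1 peak across it. The summits lay between -1680 and -1543 bp from the start, upstream of the RBPJ core printed above.

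**Figure D2:**
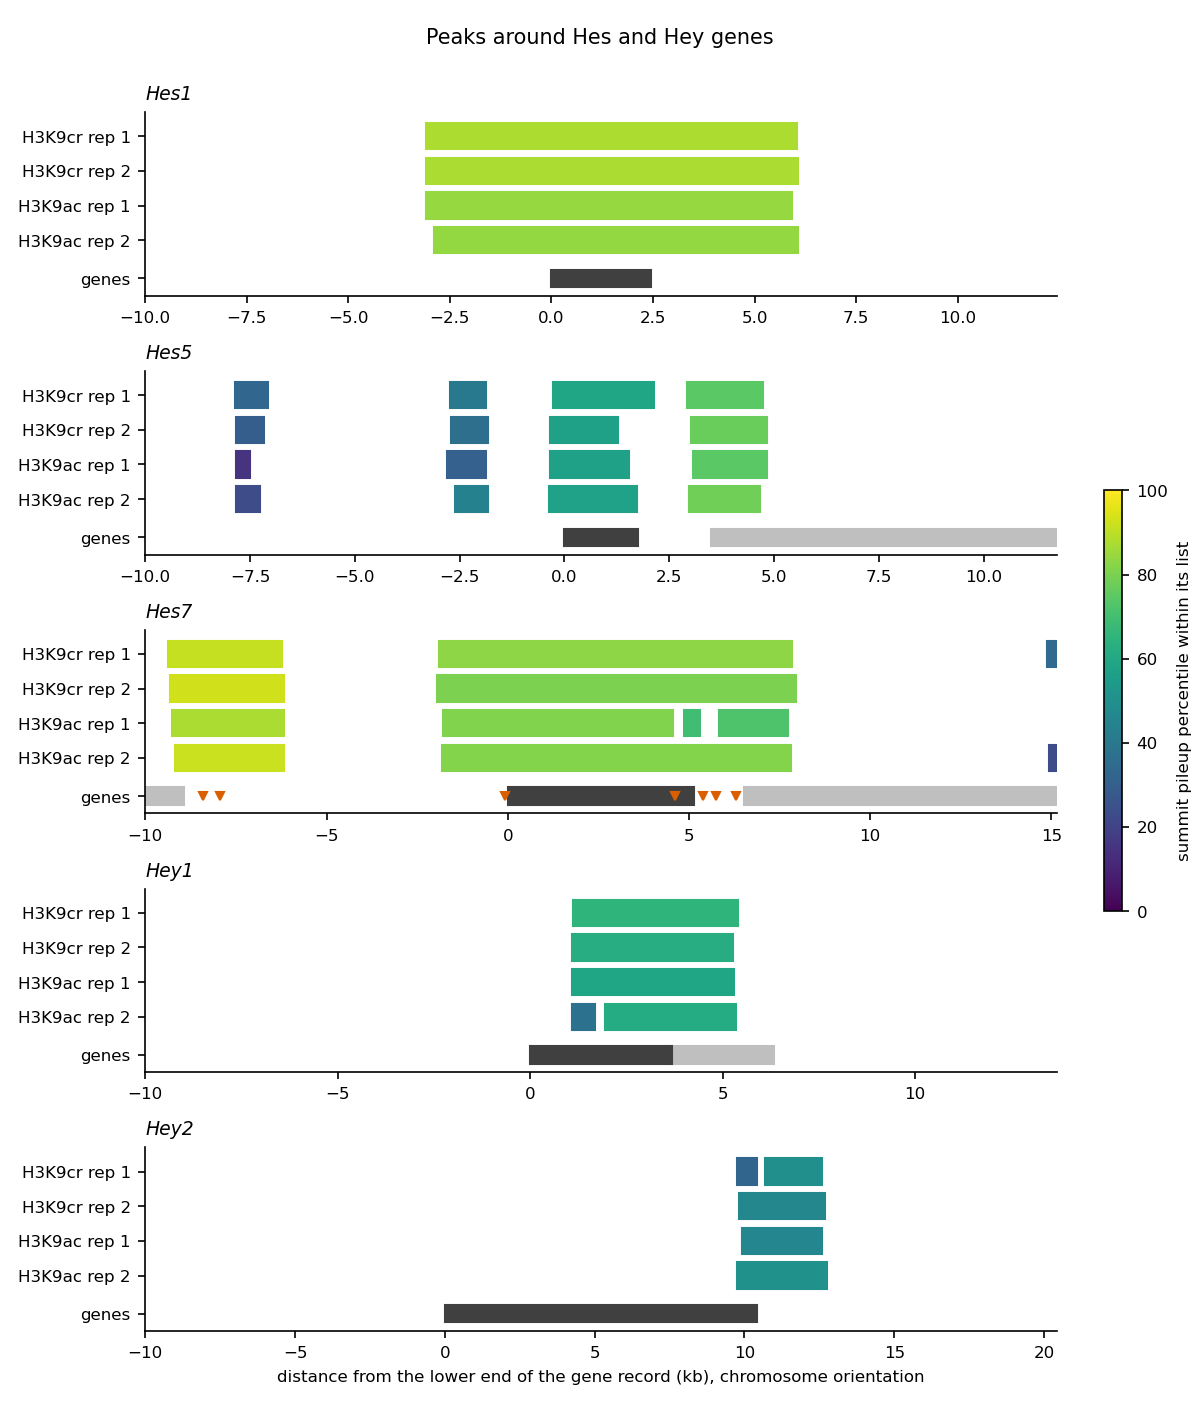
Peaks of the 4 libraries around the 5 Hes and Hey genes, by distance from the lower end of the gene record (kb), coloured by percentile of summit pileup. Dark bars are the named gene, light bars other protein-coding genes and orange triangles tRNA genes, and noncoding genes are not drawn. Hes1 is under 1 peak in each library, and the Hes7 site is broken in H3K9ac replicate 1 next to tRNA genes.

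Dll1, the ligand gene active in neural progenitors and presomitic mesoderm, had a long start site. The widths were 5376, 5109, 4764 and 5064 bp, with both H3K9cr values above both H3K9ac values. The percentiles were 77.1, 76.4, 78.6 and 75.4, and the marks overlapped. The site spans both annotated starts of the gene, and the summits fell 135 to 159 bp downstream of the upstream one. A second site stood 3029 to 5188 bp upstream of that start. It had percentiles of 63.3, 63.2, 58.0 and 61.7, higher for H3K9cr in both replicates.

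Jag1, the other ligand gene, had a start site of similar length, with 4755, 4773, 4583 and 4660 bp. Its percentiles were 73.6, 72.0, 70.3 and 71.0, and H3K9cr was above H3K9ac in both strength and width. The summits did not keep 1 position. They lay between -834 and -807 bp from the start in 3 libraries and 252 bp downstream of it in H3K9ac replicate 2. A weak site inside the gene, 17082 to 17930 bp downstream of the start, had percentiles of 21.2, 15.6, 3.79 and 4.95. With H3K9ac this site was among the weakest peaks of the lists.

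Among the receptors, Notch2 had the strongest start and Notch1 the weakest. At the Notch2 start the percentiles were 83.4, 84.0, 77.8 and 80.8 and the widths 2088, 2072, 2095 and 1872 bp. The H3K9cr percentiles lay 4.39 points above those of H3K9ac on average, the largest such difference among the 10 start sites. Inside the gene, 10706 to 12476 bp downstream of the start and over the noncoding gene Gm40103, was a weak site with percentiles of 23.7, 21.2, 1.91 and 12.0. Its widths were 1771 and 1223 bp with H3K9cr and 262 and 530 bp with H3K9ac, so the marks were apart in both measures.

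At the Notch1 start the percentiles were 60.9, 55.9, 54.5 and 56.0 and the widths 2898, 2833, 2936 and 2990 bp. The percentiles overlapped, and this was the only one of the 24 sites where both H3K9ac widths exceeded both H3K9cr widths. A site near the 3' end of the gene, at chr2:26458108-26460121 and over the noncoding gene 0610009E02Rik, had percentiles of 38.8, 44.9, 26.2 and 30.1. Its widths were 1970 and 2009 bp with H3K9cr and 915 and 937 bp with H3K9ac. A second site in the body had percentiles of 26.9, 29.6, 8.28 and 16.7 and widths of 385, 471, 267 and 454 bp. Another, 3597 to 4508 bp upstream of the start, had percentiles of 48.5, 46.2, 37.1 and 38.3 and widths of 648, 569, 434 and 760 bp. At all of these the H3K9cr percentiles were above the H3K9ac ones, while the widths overlapped at the last 2.

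Notch3 had a start site with percentiles of 69.5, 69.1, 66.0 and 66.0 and widths of 1939, 1872, 1716 and 1879 bp. H3K9cr was above in strength, and the widths overlapped. A body site close to the start had percentiles of 44.9, 45.6, 45.0 and 49.3, the single site with an H3K9ac mean more than 1 percentile point above that of H3K9cr. Beyond the 3' end stood 2 flanking sites over the noncoding gene Gm38585. The first had percentiles of 54.1, 52.2, 42.1 and 51.4 and the second 35.1, 38.5, 26.2 and 40.1. At the first, both H3K9cr values were above both H3K9ac values, and at the second the marks overlapped.

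**Figure D3:**
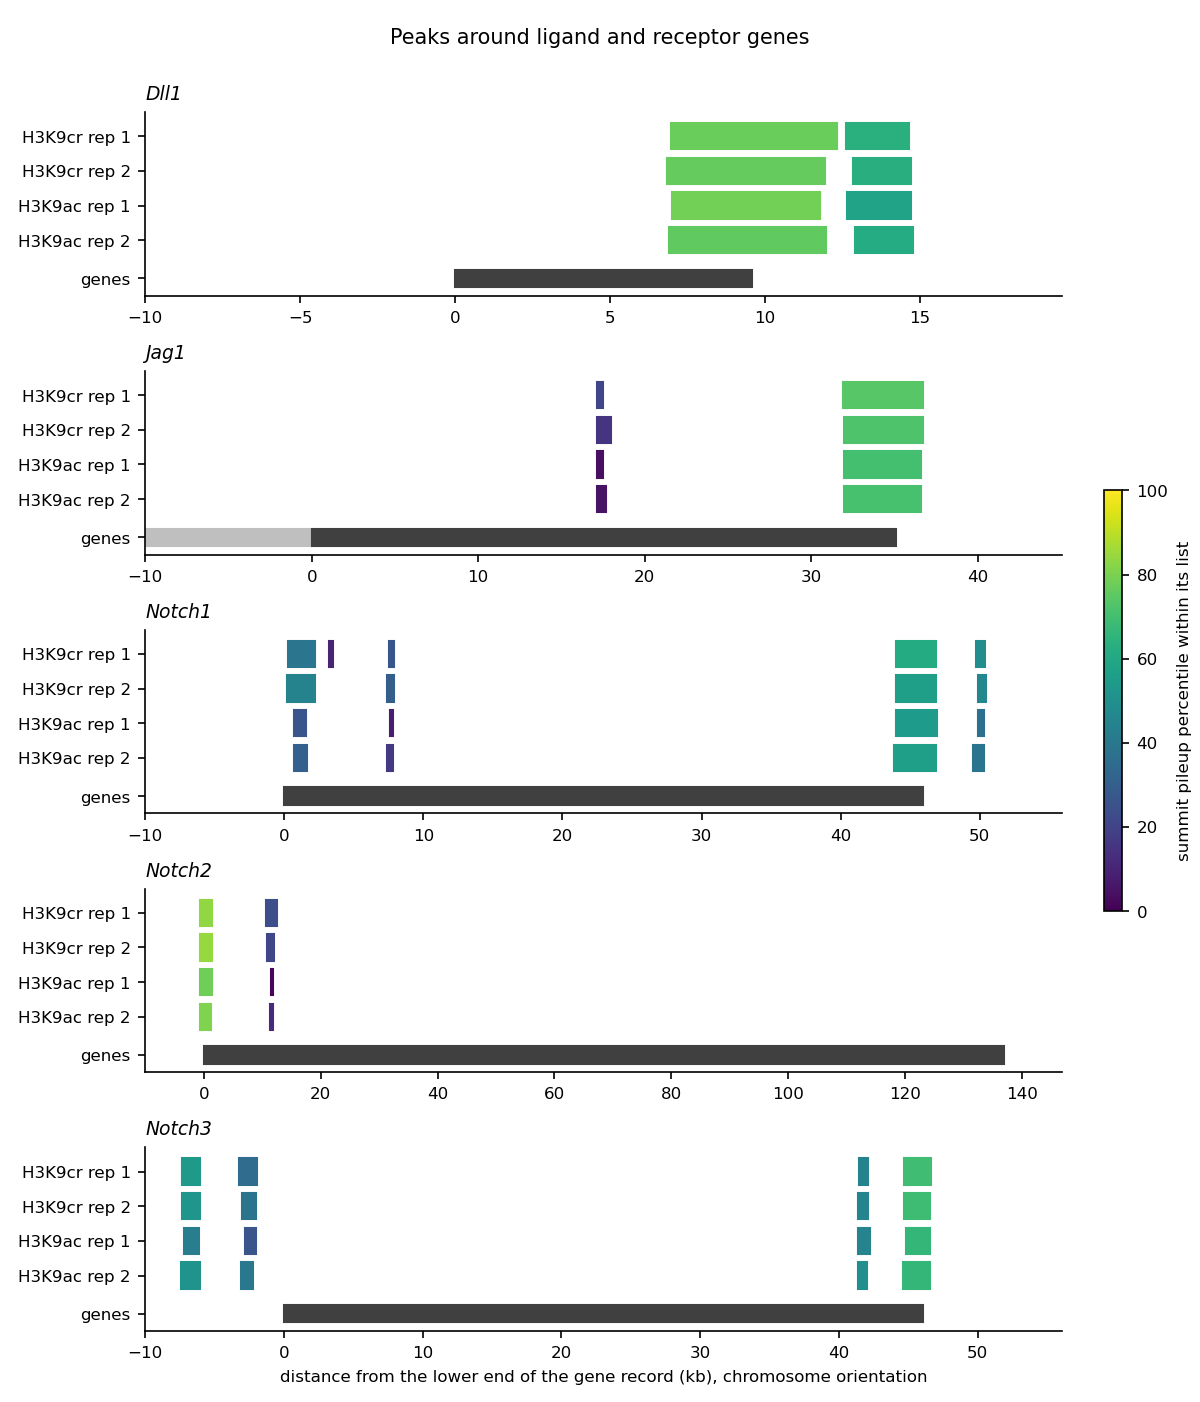
Peaks of the 4 libraries around the ligand genes Dll1 and Jag1 and the receptor genes Notch1 to Notch3, drawn as in the map of the Hes and Hey genes. The Notch1 site near 0 kb and the weak site inside Notch2 are longer with both H3K9cr replicates than with H3K9ac.

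The comparison of the 2 marks over all genes was made with limma, on ranks of the strongest pileup turned into normal scores and on covered length centred on the median of each library. No member passed an adjusted p of 0.05 (Benjamini-Hochberg over 15603 genes) in either measure. For strength, 5 genes or 0.032% were called, all with H3K9cr higher, and 9.46% had an unadjusted p under 0.05, among them 0 members. The members' adjusted p ran from 0.539 for Notch2 to 0.995 for Hey2. For covered length, 0 genes were called (0%), and 7.28% had an unadjusted p under 0.05, among them 2 members. These were Notch1, where the centred length was 990 bp higher with H3K9cr (SE 215, adjusted p 0.417, limma), and Notch2, where it was 1006 bp higher (SE 250, adjusted p 0.456, limma). Without centring, the mean differences were 1181.5 bp for Notch1 and 1197.5 bp for Notch2. The unadjusted p were 0.0067 and 0.011, from limma.

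With 2 libraries against 2, the absence of overlap can be counted beside the share of all windows that show it. For the strongest peak of the window, H3K9cr was above H3K9ac in both replicates for 5 members (Hes1, Hey1, Jag1, Notch2 and Notch3), against 32.3% of all windows, and H3K9ac was above for 0, against 9.04%. For covered length H3K9cr was above for 6 members (Hes1, Hes7, Dll1, Notch1, Notch2 and Notch3), against 41.2%, and H3K9ac for 0, against 2.74%. Summed over the 10 windows, peaks covered 62690 and 60941 bp with H3K9cr and 55678 and 58361 bp with H3K9ac, which is 61816 ± 1237 and 57020 ± 1897 bp (SD, n = 2 each). The exact two-sided permutation p was 0.33, the smallest that 2 against 2 allows. The number of peaks was 26, 23, 25 and 25 (exact permutation p = 1).

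At the level of sites, H3K9cr was above H3K9ac in both replicates at 14 of the 24 sites, and H3K9ac at 0. Among all 22972 regions with a peak in every library the shares were 38.9% and 6.46%. The separated sites were 5 of 10 at the starts, 4 of 5 in the gene bodies and 5 of 9 in the flanks. Among the 5 in the flanks is the Hes7 site at the edge of its window. Its peaks in H3K9cr replicate 2 and H3K9ac replicate 1 lie outside the window. The 5 at the starts include Hes1 and Hey1, which have no entry in the promoter table. For the strongest peak reaching within 1 kb of an annotated start, H3K9cr was above for 3 of 8 members and for 3519 of 10949 genes. No such share over all regions was taken for gene bodies and flanks, so these classes cannot be set against a background. The sites were then grouped by strength. At the 5 member sites with a mean percentile under 30, H3K9cr was above in 5, against 39.1% of all regions of that strength, with a median difference of 14.0 percentile points against 4.59 over those regions. At the 9 sites between 30 and 60 it was above in 3, against 45.8%, with a median of 3.18 against 3.55 points. At the 10 sites over 60 it was above in 6, against 33.8%, with 2.79 against 0.951 points. The 5 weak sites are those inside Jag1, Notch1 (the second body site described above) and Notch2 and the outer flanks of Hes5 and Hes7. The Hes7 site is the one at the edge of its window.

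Percentiles depend on how many weak peaks a list holds, and both H3K9cr lists are longer. When each list was cut to the 26096 peaks with the lowest p-values of the authors' caller, H3K9cr was above at 11 of 24 member sites and H3K9ac at 2, while the shares over all regions became 21.7% and 17.4%. The part of list length in the differences at single sites was not tested further.

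**Figure D4:**
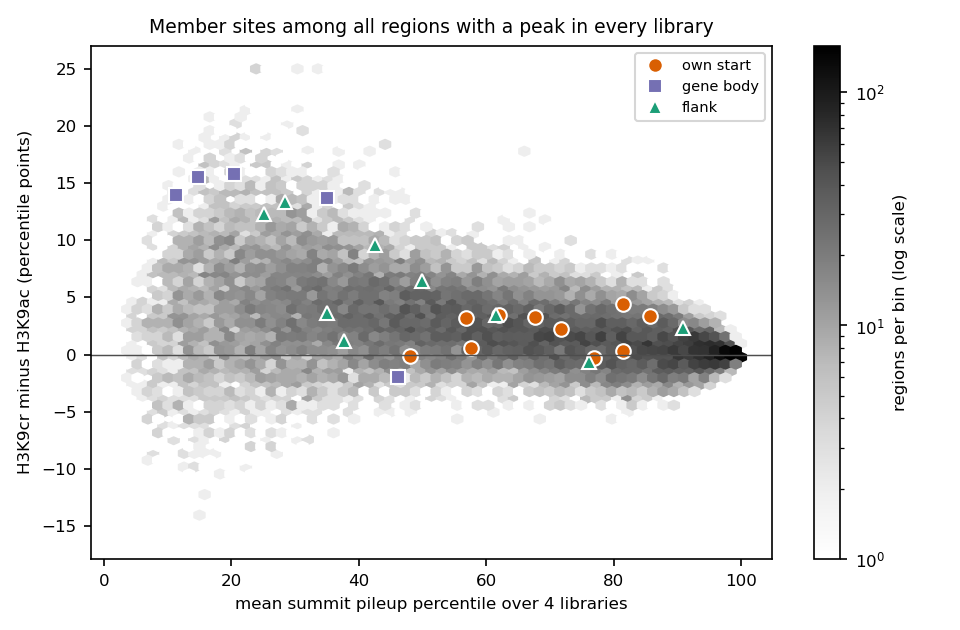
Difference between the marks (mean percentile of H3K9cr minus that of H3K9ac, in percentile points) against mean strength, for the 24 member sites with a peak in every library over a grey density of all 22972 such regions, with differences beyond 25 points drawn at 25. The 4 gene body sites under 40 on the strength axis lie between 13.7 and 15.8 points, while the start sites lie between -0.28 and 4.39.

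Agreement in position was measured with the Jaccard index, the base pairs shared by 2 lists divided by those covered by either. Over the 10 windows the H3K9cr pair had an index of 0.913 and the H3K9ac pair one of 0.892. Between marks the 4 pairs ranged from 0.863 to 0.906, with a mean of 0.885. Over the whole genome the means were 0.842 within and 0.836 between marks. Hes1 had the closest agreement, with 0.965 to 0.995 over all 6 pairs. Only Notch1 and Notch2 had both indices within a mark above all 4 between marks, as did 7.83% of gene windows. For Notch1 they were 0.854 and 0.884 within a mark against 0.718 to 0.742 between. For Notch2 they were 0.809 and 0.849 against 0.608 to 0.729. The Notch2 body site and the Notch1 site near the 3' end had shorter peaks with H3K9ac in both replicates.

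The rest of the pathway was examined through 59 other genes. All 59 had a peak in every library within their windows, with a median percentile of 80.8 for the strongest peak. By role, the medians were 52.6 for 5 other ligand genes, 69.6 for 7 other Hes, Hey and related genes, 83.7 for 15 genes of processing and modification, 88.5 for 16 genes of the transcription complex and 76.7 for 15 modulators. Among processing genes, Psenen, a subunit of gamma-secretase, and Rfng, which adds sugar to Notch, both reached 97.7, and Mfng, another such enzyme, was lowest at 41.0. In the transcription complex, Snw1 (98.7), a partner of the Notch complex, and Ncor1 (97.3), a corepressor, were highest and Rbpjl, a relative of Rbpj, was lowest at 43.8. Dtx3 (93.6), of the Deltex family, and Fbxw7 (88.4), through which the intracellular domain is degraded, led the modulators, of which Dner, a neuronal surface protein, was lowest at 35.5. Among the Hes and Hey relatives, Bhlhe40 (85.4) and Hes3 (82.1) were highest and Hes2 lowest at 29.9. In these windows H3K9cr was above H3K9ac in strength for 21 of the 59 genes, against 32.3% of all windows, and below for 6, against 9.04%. In covered length it was above for 29, against 41.2% of all windows, and below for 3, against 2.74%.

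A window can take its value from a neighbour, so the strongest peak reaching within 1 kb of an annotated start was also taken. This was added after the Hes5 and Hes7 windows had been seen. The summit of such a peak can lie farther off, at -2440 to -2298 bp for Hes7 and -1680 to -1543 bp for Hey2. Signal from a neighbour under the same peak is therefore not removed. Of the genes with an entry in the promoter table, 62.6% had such a peak in every library (10949 of 17492), with a median percentile of 77.0. The same held for 8 of 8 members, with a median of 69.7, and for 45 of 47 other pathway genes, with a median of 76.7. The exceptions were Notch4 and Dlk1. Notch4, the receptor of endothelial cells, had no peak at its start in any library, although its window value was 93.3. Dlk1 had 1 only in H3K9ac replicate 2, at a percentile of 0.278. Dll3, a ligand gene that acts in somite formation, had 91.7 for the window and 52.9 at its start. For Dll4, a ligand gene of blood vessels, the values were 72.1 and 48.5. At the Dll4 start the percentiles were 59.1, 59.9, 34.6 and 40.6, with both H3K9cr values above both H3K9ac values, while limma called 0 of 10949 genes for strength at annotated starts (955 at an unadjusted p under 0.05). Dlk2, the lowest of the other ligand genes, stood at 41.6 on both measures. Snw1, Dtx3, Bhlhe40, Hes3, Hes2 and Mfng, named above by window value, had no entry. Whether their window values come from their own starts was not tested.

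The ligand genes Dll1 (76.9) and Jag1 (71.7) had higher means at their starts than the other 4 ligand genes with a start peak in every library, whose means lay between 41.6 and 52.9. Rbpj, the DNA-binding partner of the pathway, stood at 88.6. Proneural genes, which Hes proteins repress, were low. All 7 had a peak in every library in their windows, with a median of 37.6 and values from 32.0 for Neurog1 to 48.2 for Neurog2. At the start itself, the 5 with an entry ranged from 14.6 to 36.0. All 8 members with an entry, the lowest being Hey2 at 48.1, stood above this range.

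**Figure D5:**
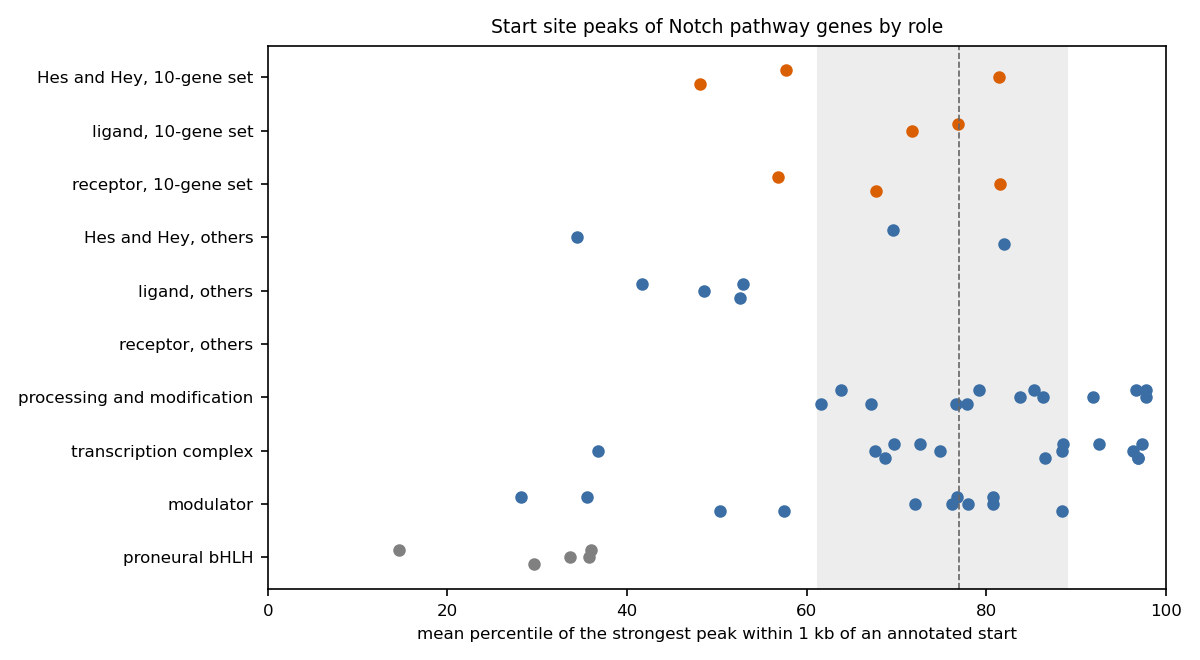
Mean percentile over 4 libraries of the strongest peak reaching within 1 kb of an annotated start, by role. Genes drawn have a promoter entry and such a peak in every library. Hes1 and Hey1 have no entry and are not drawn, and the row of other receptors is empty because Notch4 had no start peak. The dashed line is the median of all such genes (77.0) and the grey band their middle quartiles, and the proneural genes lie to the left of the 10-gene set.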

How the data were processed

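The authors deposited 1 peak list per precipitated library, made with Bowtie2 2.4.1 and MACS2 2.2.7.1 on GRCm38, as the submitters' processing notes state, without their options. A row holds, per the file headers, position, length, summit, the pileup (coverage signal) at the summit, a -log10 p-value, a -log10 q-value and a fold enrichment (ratio) from the authors' peak caller. These values were used only to rank, describe or filter peaks within a list. The smallest deposited -log10 q was 2.02 to 2.06.

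Genes were taken from the RefSeq gene table and start sites and sequences from the RefSeq promoter table, both GRCm38.p6. Positions count from 1. Peaks overlapping between libraries were merged into regions. limma 3.58.1 in R 4.3.3 compared the marks over all genes with a peak in every library. Other steps used Python 3.11.15, numpy 2.4.6, pandas 2.3.3, scipy 1.17.1 and matplotlib 3.10.9. The code was tested on simulated data.

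The members, gene lists and tests were chosen with earlier results of these data known. Named genes were the members, for each role the 2 highest and the lowest by window strength, pathway genes lacking a peak, neighbours at member sites, the 3 genes nearest to Hes1, and fixed markers. Rbpj, Dlk1 and the start values of Dll3 and Dll4 were named after their values were seen. The series design text calls the replicates biological, and nothing says whether they came from separate cultures, so p-values measure the spread between these libraries. Alternatives were other windows, thresholds, list lengths, strength measures, filters, a replicate block and leaving out each library.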

Additional observations from a re-analysis of the deposited data

How the results depend on the processing

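The 10 members and the 59 other pathway genes had a peak in every library under each window, threshold and left-out library tried. The wider window and the left-out libraries could not have changed this, since neither takes a peak away from such a gene. The number of genes called for strength was unstable, at 5 in the reported analysis, and no member was called under any setting. It was 12 with windows of 2.5 kb, 19 with 25 kb, 2 with a -log10 q of at least 10, 2 with lists of equal length, 12 with summits in the window, 40 with a peak in at least 1 library, 0 by fold enrichment (177 at an unadjusted p under 0.05) and 0 at annotated starts (955 unadjusted), the last chosen after seeing the data. Leaving out 1 library gave 91 to 771, the highest without H3K9ac replicate 2, 106 without H3K9ac replicate 1, 98 without H3K9cr replicate 1 and 91 without H3K9cr replicate 2. The lone library is then assumed to vary like the other group. Covered length gave 0 in every setting. Without centring, its median difference over genes changed sign from -28.5 to 163 bp. With lists of equal length, that of the strength score changed from 0.0459 to -0.00437.

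With the replicate number as a block, 160 genes were called for strength. The replicate differences of the marks correlated at 0.0451 for strength and 0.137 for covered length over genes, and no label says that the numbers pair the libraries.

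Member sites with H3K9cr above H3K9ac numbered 9 of 18 with windows of 2.5 kb (38.9% of all regions) and 7 of 19 with a -log10 q of at least 10 (28.6%). Without 1 library they were 15 to 19 of 24, and the share of all regions was 46.6% to 68.7%. Members whose marks separated by Jaccard index numbered 1 at the stricter q (7.70% of gene windows) and 3 to 5 without 1 library, when fewer pairs are compared and 28.7% to 49.7% of gene windows separated. The difference in number of peaks, -0.5, changed sign to 2 at the stricter q and ran from -2 to 1 without 1 library. The share of peaks overlapped over the larger part of their length by the other mark was 0.934. Of the other values, 48 moved beyond the replicate spread and 172 did not. The cause of these moves was not tested.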
